A study of Oryctolagus cuniculus with 36 samples.

Results

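Obeticholic acid (OCA) was compared with vehicle in the embolized liver lobe of wild-type rabbits, the lobe that shrinks after portal vein embolization. The comparison covers 12 of the 36 libraries of the series: 6 libraries of the cranial, embolized lobe after OCA and 6 of the same lobe after vehicle. Treatment began before embolization, and every rabbit underwent embolization, so OCA was measured on top of the procedure and not against an unoperated liver. The sources used here state no dose, duration, sex, age or number of rabbits. Nothing in the labels ties a library to a rabbit of its own, so the p-values rest on the spread among libraries, part of which could be technical. The 12 libraries of the caudal, non-embolized lobe (6 after OCA, 6 after vehicle) and the 12 of terminal ileum serve only to set the responses of the embolized lobe beside those of another tissue.

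Portal vein embolization closes branches of the vein that carries blood from the gut to the liver. The lobes behind the block lose portal blood and shrink, while the open lobes take the whole portal flow and grow. OCA is a bile acid derivative that activates FXR, a nuclear receptor of hepatocytes and ileal enterocytes; FXR lowers bile acid synthesis, in part through the repressor SHP acting on CYP7A1, and raises bile acid export. The shrinking lobe keeps its arterial supply and its bile ducts, and the comparison addresses what the drug changes in the RNA of that lobe.

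The deposited table lists 9419 Ensembl gene IDs, and 8410 of them reached 10 normalized counts in 6 or more of the 12 embolized libraries. A normalized count is a gene's read count divided by the size factor of its library. The table does not pair its IDs with names, and none of the 38822 genes of the reference table used here carries an Ensembl ID. Genes are therefore given by ID for the 2 rises and 2 falls of lowest p, and otherwise by their place in the order of p. No function is assigned to any of them, bile acid genes were not analysed here by name, and the tissue label was not checked against cell type markers.

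After OCA, 5 genes rose and 12 fell in the embolized lobe at a Benjamini-Hochberg adjusted p under 0.05 (limma-trend on log2(normalized count + 1), all 24 liver libraries in 1 fit). That is 0.0595% of the tested genes for rises and 0.143% for falls, or 0.202% in all. The rises had a median log2 fold change of 1.77, from 0.90 to 3.08, and 4 of the 5 were at least 2-fold. The falls had a median of −1.23, from −3.94 to −0.59, and 10 of the 12 were at least 2-fold. In bulk tissue, fewer cells of a type and less RNA per cell cannot be told apart. The number of calls depended on which libraries entered the fit. When only the 12 embolized libraries were fitted, limma called 0 genes. The smallest adjusted p was then 0.0949, and 776 genes had an unadjusted p under 0.05. The fit with all 24 had 1060 at that level, and edgeR on the recovered reads called 18 genes, 14 of them among the 17. With the 24-library fit, leaving out vehicle 5 gave 284 calls and leaving out any other single embolized library gave 8 to 35.

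ENSOCUG00000024104 was the rise of lowest p. Its normalized count after OCA had a lowest value of 93.7, a median of 249.98 and a highest value of 837; after vehicle these were 14.7, 32.1 and 94.4. The groups touched only at their edges, where OCA 6 lay just under vehicle 2. The means were 363 ± 292 after OCA and 40.1 ± 31.1 after vehicle (SD, n = 6 each), a log2 fold change of 3.08 ± 0.47 (SE, limma adjusted p = 0.00717). Each fit that left out 1 of the 12 libraries kept this call, with a log2 fold change between 2.76 and 3.39. Not all of the called genes were as stable. The rises at places 4 and 5 in the order of p lost their call in 6 and 7 of these 12 fits. The falls from place 6 to place 12 lost theirs in 5 to 9 of them. The rises and falls before these places kept their call in every such fit. All of these fits held the non-embolized libraries too. With the 12 embolized libraries alone ENSOCUG00000024104 was not called (limma adjusted p = 0.159).

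ENSOCUG00000005666 was the second rise, with groups that did not overlap. After OCA it ranged from 320 to 1376 normalized counts with a median of 725, and after vehicle from 10.3 to 266 with a median of 129. Vehicle 2 was far below the other vehicle libraries, and without it the log2 fold change was 2.39. With all libraries the means were 788 ± 357 after OCA and 141 ± 112 after vehicle (SD, n = 6 each), a log2 fold change of 2.99 ± 0.52 (limma adjusted p = 0.0108).

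ENSOCUG00000013971 was the fall of lowest p and the most abundant of the 17 genes. After OCA it ranged from 4443 to 8973 normalized counts with a median of 6959, and after vehicle from 9893 to 21105 with a median of 15133. Every OCA library lay below every vehicle library, OCA 2 and OCA 4 lowest of all. The mean after OCA, 6726 ± 1929, was 44.0% of the vehicle mean of 15281 ± 4013 (SD, n = 6 each; log2 fold change −1.19 ± 0.21, limma adjusted p = 0.0108).

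ENSOCUG00000006887 was the second fall. Its OCA values ran from 1242 to 3729 with a median of 2450 normalized counts, and its vehicle values from 4715 to 13045 with a median of 6940. The groups did not overlap, and OCA 4 and OCA 2 were again the lowest pair. The mean after OCA, 2454 ± 1170, was 32.1% of the vehicle mean of 7637 ± 3114 (SD, n = 6 each; log2 fold change −1.70 ± 0.29, limma adjusted p = 0.0108).

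**Figure D1:**
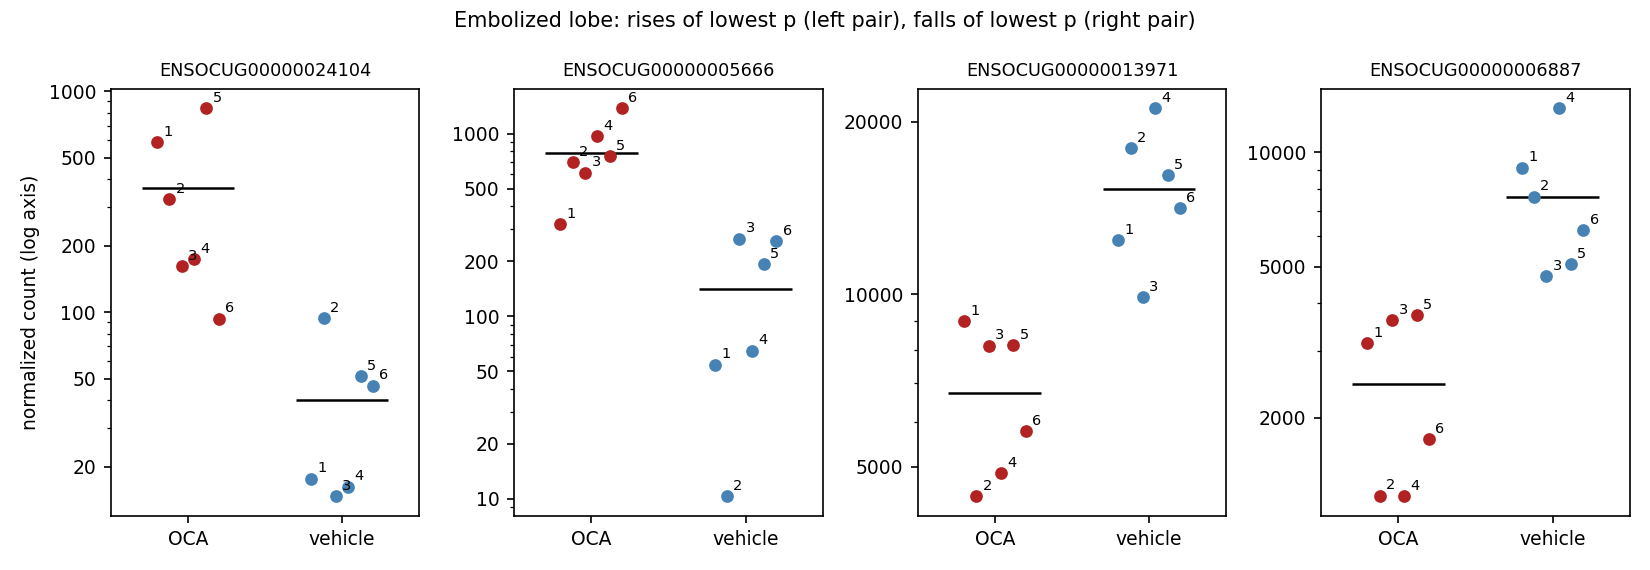
Normalized counts (log axis) of the 2 rises and 2 falls of lowest p in the 6 OCA and 6 vehicle libraries of the embolized lobe; numbers are replicate numbers and bars are group means. The groups do not overlap in ENSOCUG00000005666, ENSOCUG00000013971 and ENSOCUG00000006887, while in ENSOCUG00000024104 OCA 6 (93.7) lies just below vehicle 2 (94.4).

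The other rises were smaller. The third in order of p was even after OCA, with 115 to 181 normalized counts after OCA and 19.2 to 67.8 after vehicle, a log2 fold change of 1.77 ± 0.32 (limma adjusted p = 0.0108) without overlap. The fourth ranged from 807 to 1740 after OCA and from 367 to 1118 after vehicle (1.18 ± 0.22, limma adjusted p = 0.0201). Its groups overlapped because vehicle 5 stood at 1118 while the other vehicle libraries reached at most 626. The fifth ranged from 312 to 692 after OCA and from 210 to 392 after vehicle (0.90 ± 0.19, limma adjusted p = 0.0439), with OCA 4 lowest in its group.

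Among the other 10 falls, the fifth in order of p had the greatest fold. It ranged from 17.0 to 1373 normalized counts after OCA, with a median of 352, and from 2054 to 7131 after vehicle, with a median of 3663 (log2 fold change −3.94 ± 0.72, limma adjusted p = 0.0125). The OCA libraries were far apart from one another: OCA 2 stood at 17.0 and OCA 4 at 60.8, against 1101 in OCA 3 and 1373 in OCA 5. The sixth fall was the reverse case. Its OCA libraries were tight, from 223 to 338, while its vehicle libraries spread from 437 to 2038 (−1.91 ± 0.38, limma adjusted p = 0.0297), with vehicle 5 the lowest of them. The third fall was a low gene, at 20.04 to 40.7 after OCA and 46.8 to 85.8 after vehicle (−1.15 ± 0.20, limma adjusted p = 0.0108). The remaining 7 falls had log2 fold changes between −1.64 and −0.59.

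Of the 12 falls, 5 had groups that did not overlap, as had 2 of the 5 rises. Over all 8410 genes, 27 lay lower in every OCA library (0.321%) and 10 higher (0.119%), so 22 and 8 such genes were not called. The 12 falls together took 0.0894 ± 0.0201% of the normalized total after OCA and 0.210 ± 0.0483% after vehicle (SD, n = 6 each). The 5 rises took 0.0199 ± 0.00406% after OCA and 0.00678 ± 0.00337% after vehicle. These shares describe genes that were chosen by the same contrast.

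Most of the measured transcriptome differed little in its mean. The log2 fold changes of the 8410 genes had a median of 0.02, with the middle 50% of them between −0.19 and 0.25. At an unadjusted p under 0.05 there were 532 higher and 528 lower genes. A change of at least 2-fold, without regard to p, was seen in 274 genes upward (3.26%) and 85 downward (1.01%). Of these, 270 and 75 were not called. The 2-fold higher genes that were not called were low in level, with a median of their mean normalized counts of 39.9, against 552 for the called genes. Their median standard error was 0.62 on the log2 scale, against 0.26 for the called genes. The fit found more with level: genes with a mean normalized count under 50 reached an unadjusted p under 0.05 in 9.66% of cases, and those at 1000 and over in 18.4%.

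**Figure D2:**
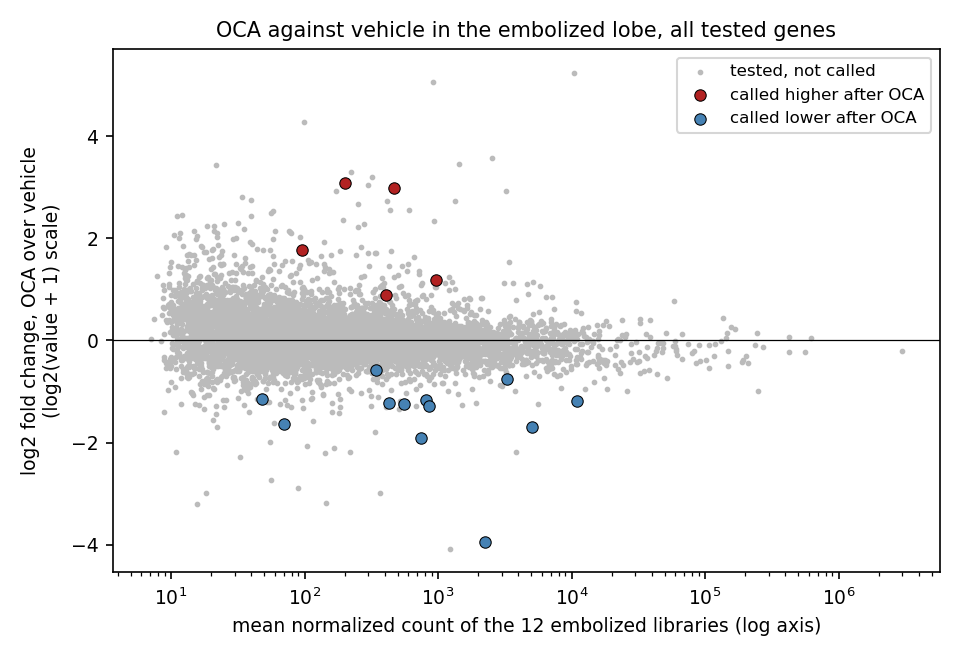
Log2 fold change of OCA over vehicle in the embolized lobe (log2(value + 1) scale) against the mean normalized count of the 12 libraries (log axis), 1 point per tested gene, with the 5 called rises and 12 called falls coloured. Uncalled genes at least 2-fold higher have a median mean count of 39.9, against 552 for the called genes.

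In much of that upward scatter, a pair of libraries held the extreme values. In the 270 uncalled genes that were at least 2-fold higher, vehicle 5 held the highest value of the vehicle group in 196, and OCA 4 the highest of the OCA group in 123. How often either library held the highest value over all tested genes was not counted, so these counts may not be particular to the uncalled rises. The gene with the largest uncalled rise (log2 fold change 5.23 ± 1.74, limma adjusted p = 0.211) stood at 42347 normalized counts in OCA 4 and at 410 to 24528 in the other OCA libraries. It stood at 41545 in vehicle 5 and at 0 to 2089 in the other vehicle libraries. The largest uncalled fall (−4.07 ± 1.45, limma adjusted p = 0.247) was split within both groups. OCA 1 and OCA 3 stood at 1420 and 1596 and the other OCA libraries at 4.84 to 23.8. Vehicle 4 stood at 20.6 and the other vehicle libraries at 1239 to 3261.

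OCA 4 and vehicle 5 resembled each other more than they resembled their own groups. Their log2 values correlated at r = 0.964 over 8410 genes, a description across genes and not across replicates. The 36 pairs across treatments had a median r of 0.936, and the next highest stood at 0.957. The nearest library of OCA 4 was vehicle 5 and the reverse. The pair was singled out beforehand because its likeness was known from earlier results of these data. These correlations therefore describe how the pair was picked. Setting both against the median of the other 10 libraries, 1300 genes differed at least 2-fold in OCA 4 and 1270 in vehicle 5. Of these, 652 were higher in both, 78 lower in both and 18 opposite. The genes high in both were, in the other libraries, above their non-embolized level in 62.7% of cases, against 52.3% for all genes. The genes low in both were below that level in only 23.1% of cases, against 47.7% for all genes. Most genes of either set thus stood above their non-embolized level in the other libraries. Both sets were picked by their distance from these same other libraries, which shifts such shares by itself. Nothing is therefore read from the shares. A principal component analysis of both lobes put the lobes apart on its first component (37.7% of variance). There OCA 4 scored 59.2 and vehicle 5 scored 65.6. The other OCA libraries of the embolized lobe scored 19.3 to 59.8, the other vehicle libraries −5.68 to 42.6, and all non-embolized libraries −56.4 to −10.5. What sets the pair apart was not tested.

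**Figure D3:**
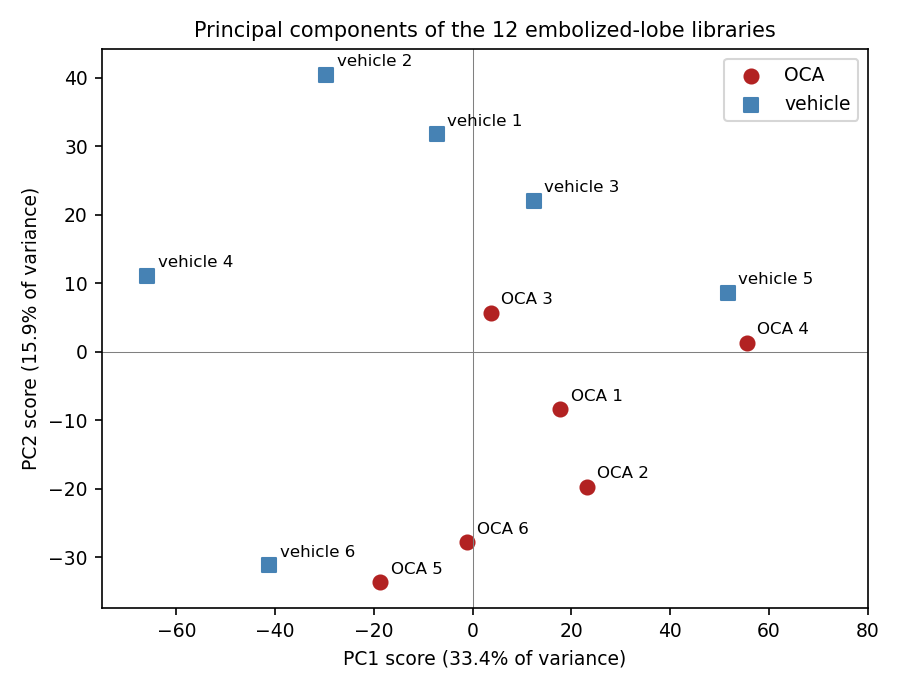
Scores of the 6 OCA and 6 vehicle libraries of the embolized lobe on their first and second principal component (33.4% and 15.9% of variance), from log2(normalized count + 1) of 8410 genes. OCA 4 and vehicle 5 lie together at the right (55.5 and 51.7 on the first component), and vehicle 4 and vehicle 6 at the left (−65.9 and −41.2).

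The same libraries stood at the edge in simple measures. The 10 most abundant genes took 33.3% of the normalized total in OCA 4 and 31.2% in vehicle 5, against 36.5 to 40.6% in the other 10 libraries. OCA 4 and vehicle 5 also had the most genes at a normalized count of at least 10, with 8515 and 8552, against 7795 to 8486 elsewhere. Between the groups none of 5 such measures differed in a two-sided permutation test over the 924 splits of 12 libraries, exact for all but the last. Depth was 14.7 ± 2.15 M reads after OCA and 13.8 ± 1.22 M after vehicle (SD, n = 6 each; M, megareads; exact p = 0.400, adjusted 0.501). Genes detected averaged 8326 ± 156 after OCA and 8175 ± 280 after vehicle (exact p = 0.277, adjusted 0.462). The first component score averaged 13.3 ± 25.4 after OCA and −13.3 ± 41.8 after vehicle (exact p = 0.216, adjusted 0.462). The share of the 10 most abundant genes averaged 36.9 ± 1.92% after OCA and 37.5 ± 3.36% after vehicle (exact p = 0.738, adjusted 0.738). The mean correlation of a library with its own group was 0.945 ± 0.00803 after OCA and 0.932 ± 0.0128 after vehicle (permutation p = 0.0519, adjusted 0.260). This measure was computed within the true groups and not anew for each split, so its p is not exact. Gene by gene, the SD over OCA libraries exceeded that over vehicle libraries in 36.8% of genes, with median SDs of 0.39 and 0.43 on the log2 scale.

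The weight of the pair on the calls was uneven. Leaving out vehicle 5 alone gave 181 rises and 103 falls, 284 calls that held all 17 genes. Leaving out OCA 4 alone gave 6 rises and 7 falls, 11 of them among the 17. With both left out there were 66 rises and 38 falls, again with all 17 genes. When those 10 embolized libraries were fitted without the non-embolized lobe, a setting chosen after seeing the data, limma called 7 genes, 2 of them among the 17. Other single libraries moved the count less: it was 31 without vehicle 3, 33 without vehicle 6 and 35 without OCA 3. It came to 9 when vehicle 1 or vehicle 2 was absent, to 11 for vehicle 4 or OCA 5, to 10 for OCA 6 and to 8 for OCA 2. Sample quality weights, estimated from the spread of all genes, were 0.532 for OCA 4 and 0.562 for vehicle 5. They were lower still for vehicle 6 (0.400) and vehicle 4 (0.430), and highest for vehicle 1 (1.92). With these weights 54 genes rose and 58 fell, 16 of the 17 among them. Between OCA 4 and vehicle 5 alone, the differences on the log2 scale ran from −5.98 to −0.56 for the 12 falls and from −0.23 to 2.33 for the 5 rises, the fourth rise being the one below 0. Both libraries entered the contrast that chose these genes, so their difference is a description and no separate support.

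**Figure D4:**
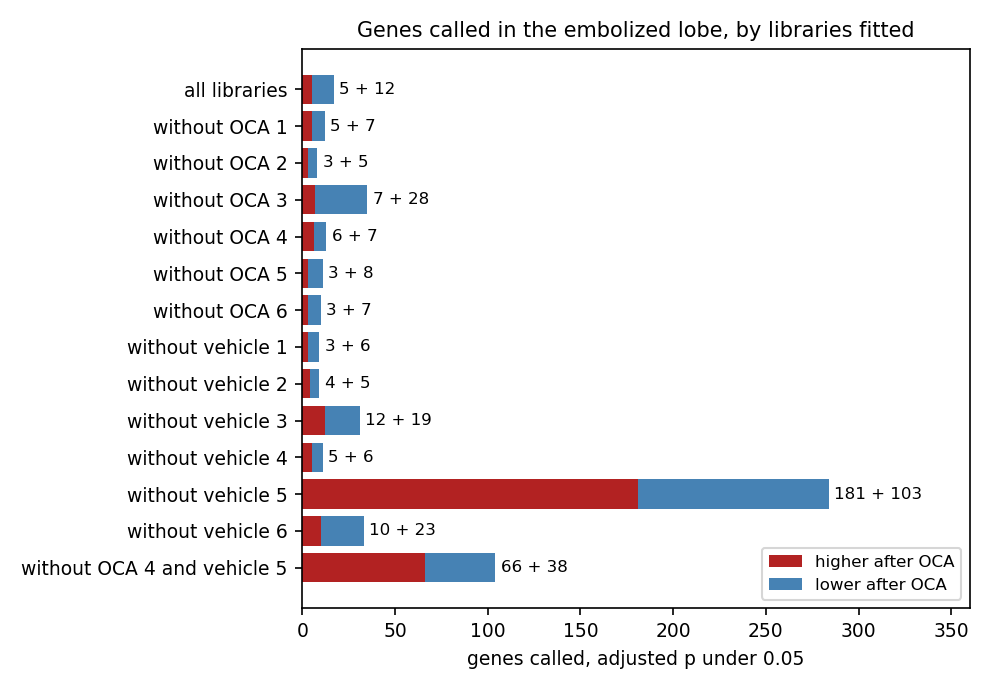
Number of genes called higher and lower after OCA in the embolized lobe (adjusted p under 0.05) with all libraries and after leaving out each library in turn or OCA 4 and vehicle 5 together. The count is 17 with all libraries, between 8 and 35 without any 1 library other than vehicle 5, and 284 without vehicle 5.

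Replicate numbers 1 to 3 and 4 to 6 follow separate runs of library numbers, and the treatments are balanced over them. Within replicates 1 to 3, limma called 5 rises and 1 fall, of which 1, the sixth fall, belonged to the 17. Within replicates 4 to 6 it called 0 genes, and 488 had an unadjusted p under 0.05. The 17 genes were chosen on the mean of both runs, which largely fixes their direction in each, so the values within runs describe only their size. Their rises ran from 1.11 to 3.38 on the log2 scale within replicates 1 to 3 and from 0.68 to 2.78 within 4 to 6. Their falls ran from −3.93 to −0.53 and from −3.95 to −0.64. For ENSOCUG00000024104 the log2 fold changes were 3.38 and 2.78, for ENSOCUG00000005666 3.23 and 2.75, for ENSOCUG00000013971 −0.92 and −1.46, and for ENSOCUG00000006887 −1.51 and −1.89. A term for the runs in the fit of all libraries gave 13 rises and 23 falls, with all 17 genes.

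The balance of rises and falls moved with the scaling. Rescaling the libraries to equal totals put the median log2 fold change of all genes at 0.15, against 0.02 with the authors' scaling, and gave 9 rises and 5 falls. Equal upper quartiles gave 7 rises and 9 falls. All 5 rises and 5 of the 12 falls kept their call under equal totals, where the excess of falls over rises turned round.

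In the non-embolized lobe 3 of the 17 genes passed the test, and the estimates of all 17 had the sign seen in the embolized lobe. All 5 rises had a log2 fold change above 0 there (50% of all genes had) and all 12 falls one below 0 (also 50%). The lobes share no library but may come from the same rabbits. In the non-embolized lobe 0.38% of the tested genes passed as rises and 0.273% as falls. The first, the third and the fifth rise passed there too (limma adjusted p = 0.00551, 0.0233 and 0.0205). None of the falls did (limma adjusted p between 0.0513 and 0.508), and their log2 fold changes had a median of −0.86. The estimates of all 12 falls and 4 of the 5 rises were nearer 0 than in the embolized lobe, the lobe in which the genes were chosen. ENSOCUG00000013971 averaged 9732 ± 1663 normalized counts after OCA and 13696 ± 3510 after vehicle there (SD, n = 6 each; log2 fold change −0.47 ± 0.21, limma adjusted p = 0.285). ENSOCUG00000006887 averaged 3223 ± 933 after OCA and 6231 ± 1740 after vehicle (−0.95 ± 0.29, limma adjusted p = 0.114).

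The difference between the lobes was tested directly. No gene passed the interaction of treatment and lobe (limma-trend, 0% of 8410 genes, lowest adjusted p = 0.550), and 613 had an unadjusted p under 0.05. With edgeR 0 genes passed and with DESeq2 on the recovered reads 5. Of the 17 genes, the fourth rise had the lowest interaction p. It averaged 1331 ± 391 normalized counts after OCA and 603 ± 266 after vehicle in the embolized lobe (SD, n = 6 each). In the non-embolized lobe it averaged 1446 ± 287 after OCA and 1383 ± 279 after vehicle. Its log2 fold change was greater in the embolized lobe by 1.11 ± 0.32 (limma adjusted p = 0.550). ENSOCUG00000005666 averaged 6583 ± 735 after OCA and 3667 ± 1121 after vehicle in the non-embolized lobe, and its log2 fold change was greater in the embolized lobe by 2.09 ± 0.74 (limma adjusted p = 0.601). The greater sizes in the embolized lobe are those of genes chosen in that lobe, and they were not shown to differ from the other lobe. The fit took the libraries of both lobes as independent. If the same rabbits gave both lobes, the standard errors and p-values of the interaction could be off.

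**Figure D5:**
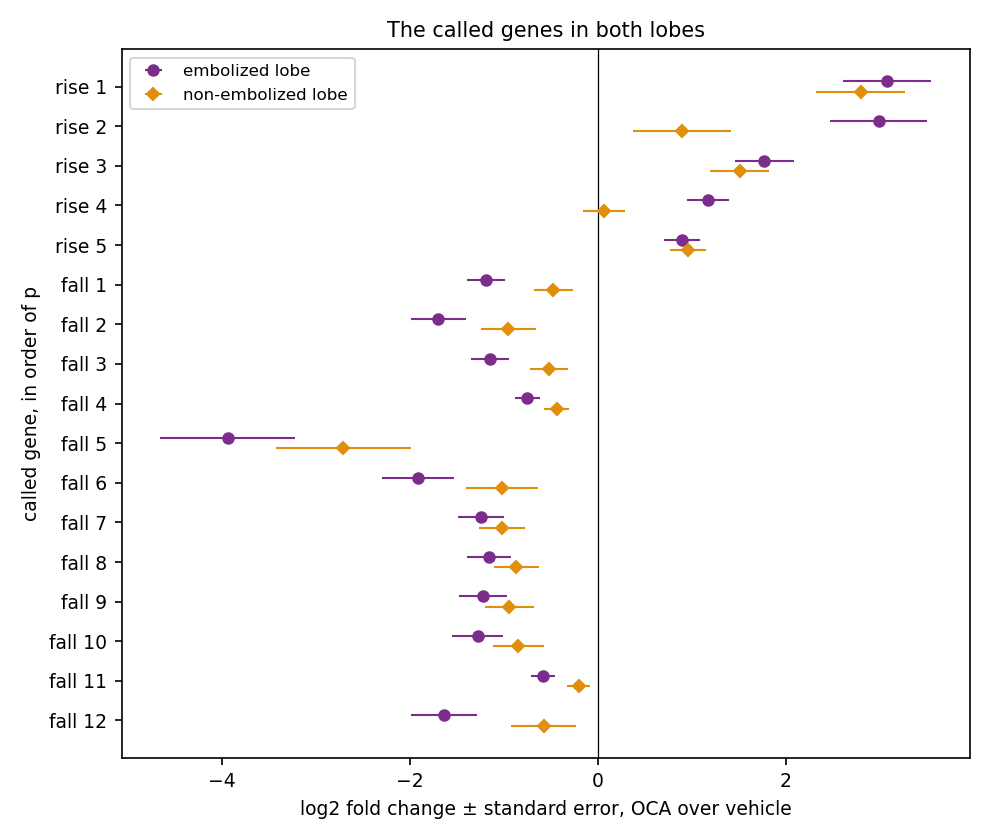
Log2 fold change of OCA over vehicle with its standard error for the 5 rises and 12 falls called in the embolized lobe, in order of p, in the embolized (circles) and non-embolized lobe (diamonds). The 17 estimates have the same sign in both lobes, with 3 rises and 0 falls passing the test in the non-embolized lobe; the fourth rise is near 0 (0.07) in the non-embolized lobe.

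In terminal ileum, which was normalized separately, 3 of the 5 rises and 11 of the 12 falls passed the filter on low values. Of these, 2 rises and 9 falls had the direction seen in the embolized lobe; 50.5% of the 9010 genes tested in ileum were higher and 49.5% lower. None passed there (limma adjusted p between 0.234 and 0.999), and 0% of all ileum genes did (688 had an unadjusted p under 0.05). ENSOCUG00000024104 was at 0 to 2.07 normalized counts after OCA and 0 to 2.24 after vehicle in ileum.

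These ileum values rest in part on 2 libraries that stood apart. Over the 9010 genes, ileum OCA 1 correlated with the other 10 ileum libraries at r = 0.807 to 0.853 and ileum vehicle 6 at 0.733 to 0.790, while those 10 correlated among themselves at 0.913 or more. ENSOCUG00000005666 stood at 3934 normalized counts in ileum vehicle 6 and at 0 to 5.18 in the other 11 ileum libraries. ENSOCUG00000013971 stood at 1600 in ileum OCA 1 and at 9798 to 12420 in the other OCA libraries, against 446 in ileum vehicle 6 and 11961 to 22158 in the other vehicle libraries. The seventh fall stood at 7.28 in ileum vehicle 6 and at 1279 to 2710 in the other vehicle libraries. Its log2 fold change in ileum was 0.97 with all libraries and −0.33 without ileum vehicle 6.

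Leaving out both libraries, a setting chosen after seeing the data, gave 5 rises and 2 falls in ileum, or 0.0777% of the genes. The third rise was among them. It stood at 130 to 272 normalized counts in the other OCA libraries and at 44.96 to 63.0 in the other vehicle libraries, a log2 fold change of 1.59 without overlap (limma adjusted p = 0.0454, and 0.101 to 0.234 in the fits with either or both libraries). With both left out, all 3 rises and 11 falls tested had the sign seen in the embolized lobe, where 49.5% of all ileum genes were above 0 and 50.5% below. The other 13 did not pass. Without ileum OCA 1 alone, ENSOCUG00000013971 and ENSOCUG00000006887 had log2 fold changes of 0.28 and 0.09, above 0. What sets these 2 ileum libraries apart was not tested.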

How the data were processed

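Paired-end reads came from strand-specific RNA libraries, per the labels' protocols. The submitters' processing notes name STAR, RSEM and DESeq2; versions, genome build and annotation were not given in the sources used. The authors deposited a signal in which each library's gene counts are scaled by a size factor of that library, with liver and ileum scaled apart. All liver values (100%) were whole multiples of their library's smallest value within a tolerance of 0.01, so reads were recovered: 12.0 to 17.3 M per embolized library. The 30 pairs of libraries within groups differed beyond sampling noise (smallest chi-square per degree of freedom 39.1).

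Genes were tested by limma-trend (limma 3.58.1, R 4.3.3) on log2(value + 1), with the 24 liver libraries as 4 group means and Benjamini-Hochberg adjustment over 8410 genes; fold changes of low genes are understated on this scale. Ileum was fitted alone. edgeR 4.0.16 and DESeq2 1.42.0 on recovered reads were alternatives, beside scalings, pseudocounts, filters, weights, blocks and left-out libraries. The tests were tested on simulated reads. The members, the comparison and the 6 gene lists were chosen with earlier results of these data known; the lists could not be used because 0 IDs matched a name. IDs were printed for the 2 rises and 2 falls of lowest p. Single genes described beyond these were chosen after their values were seen.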

Additional observations from a re-analysis of the deposited data

Results flagged for a closer look

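In 4 of the 44 groups of 6 embolized-lobe values examined, 1 library lay far from the other 5 (Dixon's test); chance flags about 1 in 20 such groups. OCA 3 was high for the fourth fall, at 3460 normalized counts, and for the ninth fall, at 522. OCA 2 was low for the twelfth fall, at 8.48 normalized counts. In OCA 4 the 10 most abundant genes took 33.3% of the normalized total, the lowest share of its group.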

How the results depend on the processing

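Against 17 calls, the count in the embolized lobe was 0 with only the 12 embolized libraries, 26 with a pseudocount of 5, 112 with sample quality weights, 36 with a term for replicates 1 to 3 against 4 to 6, 6 within replicates 1 to 3, 0 within replicates 4 to 6, 81 with DESeq2 (20 rises, 61 falls), 104 without vehicle 5 and OCA 4, and 7 when that was limited to embolized libraries. Leaving out 1 library gave 8 to 284. The replicate block gave 30 calls (11 rises, 19 falls), 15 of them among the 17. Same-numbered OCA and vehicle libraries of the embolized lobe correlated between −0.444 and 0.254 in their deviations, with 3 of 6 above 0.1. Of the OCA libraries, 1 of 6 matched its own number best, so the numbers were not read as pairs of OCA and vehicle. This says nothing on whether same-numbered libraries of both lobes come from the same rabbit. The interaction gave 5 calls with DESeq2 and 0 to 1 when 1 library was left out, the 1 without vehicle 5. In the 493 other fits of the 17 genes, 341 kept the call, 152 lost it and 0 turned direction; these fits share libraries with the contrast that chose the genes, and a rescaling shifts all genes alike, so the direction says little. Without 1 library, the difference in the share of the 10 most abundant genes (OCA minus vehicle) ran from −1.77 to 0.213 percentage points. That in mean correlation with the own group ran from 0.00342 to 0.0197, and it passed without vehicle 1 (permutation test, adjusted p = 0.0433). The test is not exact for this measure, so no difference is read from it. In ileum the count was 0 without vehicle 6 or without OCA 1, and 7 without both, against 0 with all libraries. The causes of these shifts were not tested.

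Low genes were measured less precisely: those with a mean normalized count under 50 had a median standard error of 0.41 on the log2 scale, against 0.18 at 1000 and over. How much of this is depth and how much is spread between libraries was not tested.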
